A study of Mus musculus with 7 samples.

Results

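The genes described here build the basement membrane and the receptors that hold cells to it: every integrin subunit (gene names Itga or Itgb) and laminin chain (Lama, Lamb or Lamc) listed in the count table, with Nid1, Nid2, Hspg2, Agrn and Dag1. They were picked out by symbol, although the set was chosen with earlier results of these data known. Of the 12771 genes in the table, 33 qualified: 18 integrin subunits, 10 laminin chains, 2 nidogens, 2 heparan sulfate proteoglycans and dystroglycan. RNA came from cancer-associated fibroblasts (CAFs) of orthotopic pancreatic tumors in male C57BL/6 J mice aged 8 weeks, taken 2 to 3 weeks after KPC cells, a mouse pancreatic cancer line, were injected. The KPC cells of every tumor carried a lentiviral pLKO.1 hairpin and had been selected with puromycin, and the hairpin was directed against Brca2 (shBrca2, 4 libraries, replicates 1 to 4) or was non-targeting (shControl, 3 libraries, replicates 1, 2 and 4). The sorted CAFs were live podoplanin-positive cells without surface CD45, EpCAM or CD31. They did not carry the hairpin, so their own Brca2 transcript, with a log2 fold change of -0.03 and an adjusted p of 0.97, does not measure the knockdown.

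A basement membrane is a thin sheet of matrix on which epithelial, endothelial, muscle, fat and Schwann cells rest. Its core is a laminin network, in which each laminin is a trimer of an alpha, a beta and a gamma chain, and a type IV collagen network, with nidogens and perlecan as links between them. Integrins are receptors made of an alpha and a beta subunit, and the alpha subunit largely sets whether the receptor binds laminin, collagen or proteins with the short RGD motif. Fibroblasts make many basement membrane components although they do not themselves sit on a continuous sheet.

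Counts per gene came from the 3′ ends of poly(A) transcripts, and total counts ran from 1898679 in shBrca2 replicate 3 to 5990579 in shBrca2 replicate 2. Normalized counts are the counts divided by each library's DESeq2 size factor. Calls needed an adjusted p below 0.1, a log2 fold change beyond 0.5 in either direction and an average of more than 5 normalized counts. Of the members, 30 passed that last limit, and Itga8, Itgb7 and Lamb3 did not. The sorted cells carried fibroblast transcripts in every library: the 9 genes of a fibroblast marker list summed to between 74949 and 80646 normalized counts in shControl CAFs and to between 63540 and 68394 in shBrca2 CAFs, and 2 of them, Dcn and Lum, fell. The summed level of 7 epithelial markers was 387 to 1142 in shControl and 1439 to 2040 in shBrca2 libraries, with Krt7, Krt8, Krt18, Krt19 and Elf3 called higher, Cdh1 at 4.01 ± 2.83 (SD, n = 3) against 11.5 ± 5.31 (SD, n = 4), and Epcam, Cldn4 and Ocln outside the table. In bulk libraries of this kind, fewer cells of a type and less RNA per cell cannot be told apart.

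The genes split in both directions. In shBrca2 CAFs 4 of the 33 members rose (Lama5, Itga10, Itga6 and Itga3) and 5 fell (Lama2, Itga11, Nid1, Lamb1 and Lamb2), while 24 were not called. The share called was 27.3%, against 9.04% of all genes tested. Over all genes, 3.77% were called higher and 5.27% lower. The median log2 fold change of the members was -0.01, and that of all genes 0.01. The groups were fully apart in normalized counts for 10 members, against 17.1% of all genes. Laminin chains leaned lower, with 1 chain called higher, 3 called lower and a median log2 fold change of -0.39 over 10. Integrin subunits leaned higher, with 3 called higher, 1 called lower and a median of 0.45 over 18. The members together took 0.454% to 0.467% of all counts in shControl libraries and 0.354% to 0.424% in shBrca2 libraries, and the laminins 0.141% to 0.16% and 0.102% to 0.124%. For the integrins these shares were 0.122% to 0.146% and 0.127% to 0.155%, which overlap.

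**Figure D1:**
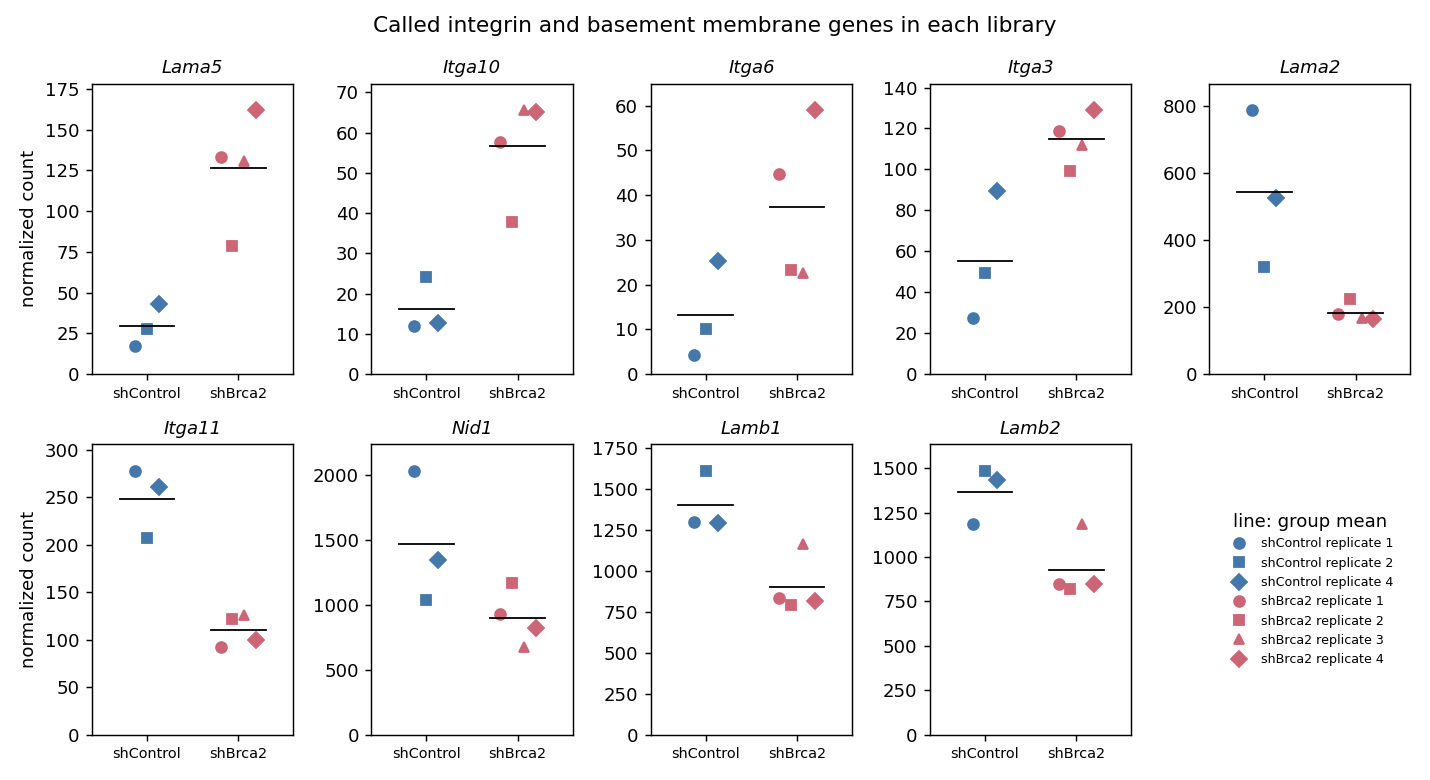
Normalized counts of the 9 called genes, 1 panel per gene with its own axis from 0. Each symbol is a library, the horizontal line is the group mean, and the shControl (blue) and shBrca2 (red) libraries overlap for Itga6 and Nid1 and are apart for the other 7 genes.

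**Figure D2:**
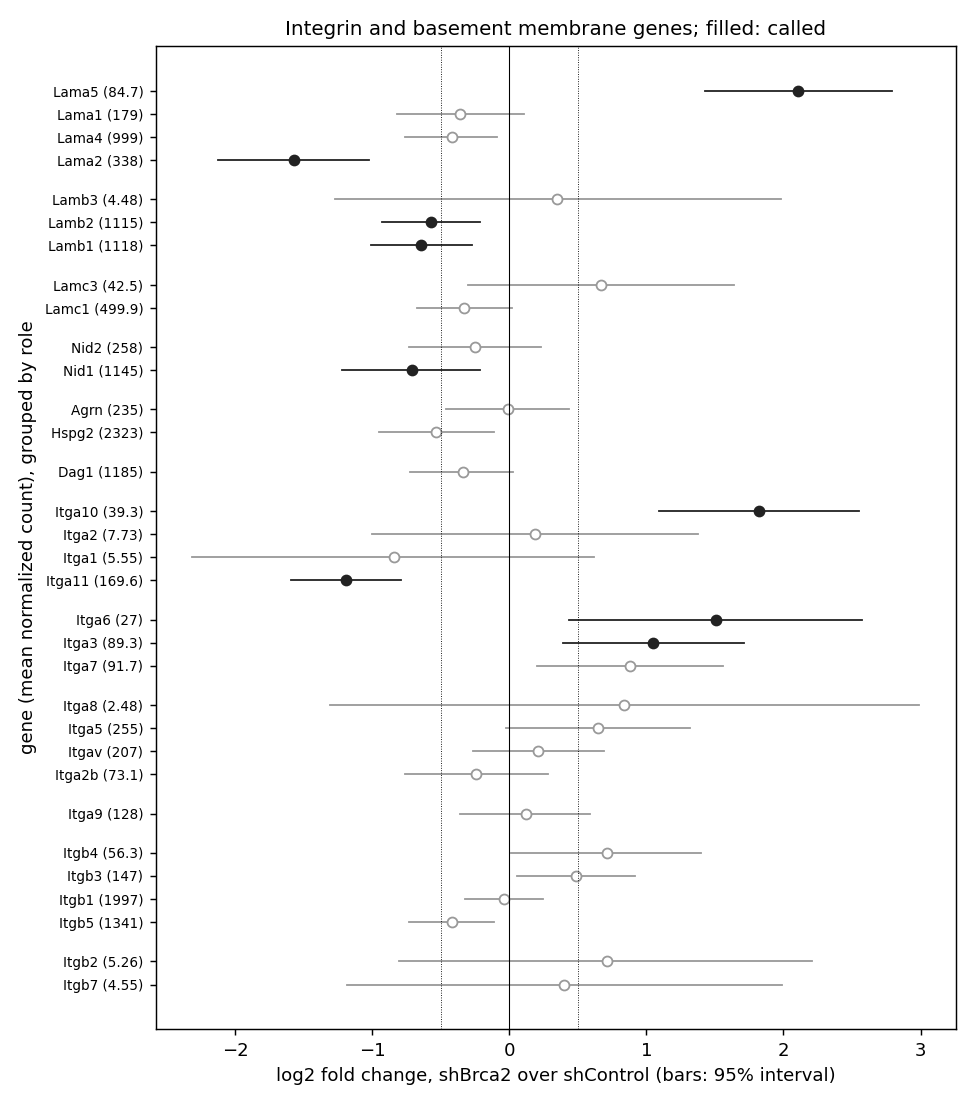
Log2 fold change (horizontal axis) of 32 of the 33 members, shBrca2 over shControl, with 95% intervals from the standard error, grouped by role along the vertical axis with each mean normalized count in brackets. Filled points are called, and the dotted lines mark the fold threshold of 0.5 in each direction.

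Among the laminin alpha chains, which carry the part of the trimer that cell receptors bind, Lama5 rose and Lama2 fell. Lama5 (GRCm38.p6 chr2:180176373-180225904) encodes the alpha chain typical of mature epithelial and endothelial basement membranes. In order of replicate number, it had 17.1, 27.8 and 42.8 normalized counts in the shControl libraries (replicates 1, 2 and 4) and 133, 78.7, 131 and 162 in the shBrca2 libraries (1 to 4), and values below keep this order. The lowest shBrca2 library lay above the highest shControl library. The group means were 29.2 ± 12.9 (SD, n = 3) and 126 ± 34.6 (SD, n = 4), a log2 fold change of 2.11 (SE 0.35, DESeq2 adjusted p = 9.3e-07). Lama2 (chr10:26981285-27617191) encodes the alpha chain of muscle and peripheral nerve basement membranes, which fibroblasts also make. Its normalized counts were 788, 319 and 527 in shControl and 179, 223, 168 and 163 in shBrca2 libraries. Every shBrca2 library was below every shControl library, and the shControl libraries differed among themselves more than the shBrca2 libraries did (means 545 ± 235 and 183 ± 27.6, SD, n = 3 and 4). The log2 fold change of Lama2 was -1.57 (SE 0.28, DESeq2 adjusted p = 3.5e-06).

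Lama4, the alpha chain of vessel and fat cell basement membranes, had means of 1169 ± 228 and 872 ± 35.8 (SD, n = 3 and 4) and a log2 fold change of -0.42 (SE 0.17, adjusted p = 0.12). Lama1, the alpha chain of early embryonic basement membranes, had a log2 fold change of -0.36 (SE 0.24, adjusted p = 0.48). Neither was called. Within each library the alpha chain counts can be set against their own total, which takes out differences between libraries in the whole family. Lama5 made up 0.757% to 2.62% of alpha chain counts in shControl libraries and 5.74% to 11.9% in shBrca2 libraries (means 1.6% ± 0.944 and 9.44% ± 2.62, SD, n = 3 and 4). Lama2 made up 27.8% ± 10.1 and 13.6% ± 1.85, but shControl replicate 2, at 16.3%, was level with the highest shBrca2 library, also at 16.3%. Lama4 held the most counts in every library, at 54.9% to 69.3%. These shares compare 3′ end counts and are given as a description, without a test. A share can also rise because another gene of the family falls. The mean Lama4 share went from 60% to 65% while its mean normalized count went from 1169 to 872.

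**Figure D3:**
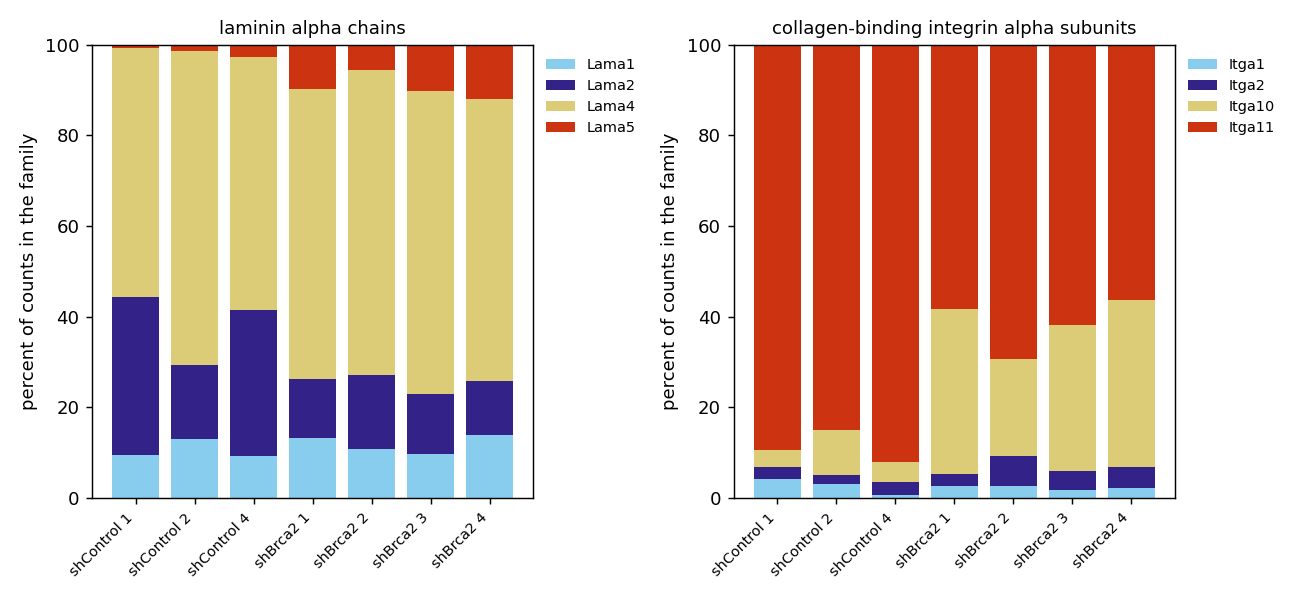
Share of each gene, in percent of the family's counts (vertical axis, stacked to 100), in each of the 7 libraries (horizontal axis) for the laminin alpha chains and the collagen-binding integrin alpha subunits. The Lama5 and Itga10 bands are wider in each of the 4 shBrca2 libraries than in any of the 3 shControl libraries.

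Both abundant laminin beta chains fell by similar amounts. Lamb1 (chr12:31265146-31329644) and Lamb2 (chr9:108479847-108490530) encode alternative beta chains that occupy the same place in the trimer. Lamb1 had 1303, 1613 and 1297 normalized counts in shControl and 839, 794, 1164 and 815 in shBrca2 libraries. The groups did not overlap, and shBrca2 replicate 3 stood nearest to shControl. The means were 1404 ± 181 and 903 ± 175 (SD, n = 3 and 4), a log2 fold change of -0.64 (SE 0.19, DESeq2 adjusted p = 0.013). It was not called without shBrca2 replicate 1 (-0.61, adjusted p = 0.12) or 4 (-0.59, adjusted p = 0.11). Lamb2 had 1185, 1485 and 1435 normalized counts in shControl and 846, 822, 1183 and 849 in shBrca2 libraries. Here the groups were apart only by the step from 1183 in shBrca2 replicate 3 to 1185 in shControl replicate 1. The means were 1368 ± 161 and 925 ± 172 (SD, n = 3 and 4), with a log2 fold change of -0.57 (SE 0.18, DESeq2 adjusted p = 0.031). The call was lost without shControl replicate 2 or 4 or shBrca2 replicate 1, 2 or 4, at log2 fold changes of -0.51 to -0.53 and adjusted p of 0.11 to 0.21. The proportion between these chains hardly moved: Lamb1 made up 47.5% to 52.3% of beta chain counts in shControl and 48.8% to 49.6% in shBrca2 libraries. Lamb3, a chain of epithelial anchoring laminin, had 1 to 7 raw counts per library and could not be resolved.

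Lamc1 and Lamc3, which encode gamma chains, were not called. Lamc1, the gamma chain of most laminins, had 527, 670.5 and 503 normalized counts in shControl and 489.7, 479, 371 and 459 in shBrca2 libraries. The groups were apart, with a log2 fold change of -0.33 (SE 0.18, adjusted p = 0.32). Lamc3 had 12.8, 17.7 and 64.2 against 37.9, 58.9, 72.5 and 33.5. The high shControl library, replicate 4, lay among the shBrca2 values, and the log2 fold change was 0.67 (SE 0.50, adjusted p = 0.55).

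Nid1 fell among the linkers, and it overlapped between the groups. Nid1 (chr13:13437602-13512275) encodes nidogen, which joins laminin to type IV collagen. It had 2034, 1039 and 1347 normalized counts in shControl and 928, 1173, 674 and 823 in shBrca2 libraries. shBrca2 replicate 2 was above shControl replicate 2. The log2 fold change was -0.71 (SE 0.26, DESeq2 adjusted p = 0.067). It was not called without shControl replicate 1 (-0.41, adjusted p = 0.50) or shBrca2 replicate 1, 3 or 4 (-0.60 to -0.72, adjusted p = 0.16 to 0.20), nor in edgeR's quasi-likelihood test (adjusted p = 0.11) or with the replicate number as a block (-0.56, adjusted p = 0.41). Nid2, the second nidogen gene, had a log2 fold change of -0.25 (SE 0.24, adjusted p = 0.68). Hspg2, which encodes perlecan, had means of 2816 ± 287 and 1953 ± 537 (SD, n = 3 and 4) and a log2 fold change of -0.53 (SE 0.21, adjusted p = 0.12), and missed the call. Without shBrca2 replicate 3 it was called, at -0.74 (adjusted p = 3.4e-04), as it was with the replicate block (-0.74, adjusted p = 0.03). No shControl library has the number 3, so the block takes shBrca2 replicate 3 out of the group comparison. The block fit is thus not independent of leaving that library out. Agrn, which encodes agrin, a proteoglycan that ties laminin to dystroglycan, had 235 ± 61.1 and 234 ± 38.6 (SD, n = 3 and 4), with an interval of the log2 fold change from -0.46 to 0.44. Dag1, which encodes the laminin receptor dystroglycan, had a log2 fold change of -0.34 (SE 0.19, adjusted p = 0.35).

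The collagen-binding integrin alpha subunits moved in opposite directions, Itga10 higher and Itga11 lower. Each pairs with the beta subunit encoded by Itgb1. Itga10 (chr3:96645584-96664519), first known from cartilage, had 12, 24 and 12.6 normalized counts in shControl and 57.7, 37.9, 65.6 and 65 in shBrca2 libraries. The groups did not overlap, and the counts behind them were 13 to 67 raw counts per library. The means were 16.2 ± 6.78 and 56.6 ± 13 (SD, n = 3 and 4), a log2 fold change of 1.82 (SE 0.37, DESeq2 adjusted p = 9.0e-05). Itga11 (chr9:62677855-62783979), a fibrillar collagen receptor of fibroblasts, had 278, 207 and 261 in shControl and 92.9, 122, 126 and 99.6 in shBrca2 libraries. Every shBrca2 library was below every shControl library. The means were 249 ± 36.9 and 110.1 ± 16.3 (SD, n = 3 and 4), a log2 fold change of -1.19 (SE 0.20, DESeq2 adjusted p = 1.1e-06).

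Of the counts of the 4 collagen-binding alpha subunits, Itga10 held 3.84% to 9.84% in shControl and 21.5% to 36.8% in shBrca2 libraries. Itga11 held 85% to 92.1% and 56.3% to 69.2%. Since the shares add up to the whole family, part of the rise in the Itga10 share comes from the fall of Itga11. The remaining collagen receptors Itga1 and Itga2 had 2 to 20 raw counts per library and were not called. Their log2 fold changes were -0.84 (SE 0.75) and 0.19 (SE 0.61). Of the exon bases of Itga10 in GENCODE vM39, 35.7% are shared with other gene models, mainly Gm42957 on the same strand, but neither of its 2 transcript 3′ ends lies in a shared stretch. Gm42957 is not among the genes of the table.

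The promoters of the genes with opposite movement are shown to let their base composition be read, since both genes encode receptors for the same class of ligand. Lama5, the member with the largest fold change, is added. The 250 bases before the start were taken from RefSeq on GRCm38.p6, and 22 of the 33 members were in that table. Sequences run 5′ to 3′ on the gene's strand, with each CG dinucleotide in capitals. For Lama5 only the 205 bases outside the annotated gene are printed.
Itga10, chr3:96645334-96645583, plus strand: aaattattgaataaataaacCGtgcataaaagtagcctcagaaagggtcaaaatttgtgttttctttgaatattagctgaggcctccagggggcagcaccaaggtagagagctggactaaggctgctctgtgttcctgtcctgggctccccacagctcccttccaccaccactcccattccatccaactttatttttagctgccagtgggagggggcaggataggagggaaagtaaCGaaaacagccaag
Itga11, chr9:62677605-62677854, plus strand: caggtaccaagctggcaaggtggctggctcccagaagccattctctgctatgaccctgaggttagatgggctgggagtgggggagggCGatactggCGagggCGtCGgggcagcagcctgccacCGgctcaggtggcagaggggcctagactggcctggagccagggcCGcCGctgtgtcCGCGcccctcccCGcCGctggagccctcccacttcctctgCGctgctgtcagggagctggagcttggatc
Lama5, chr2:180225905-180226109, minus strand: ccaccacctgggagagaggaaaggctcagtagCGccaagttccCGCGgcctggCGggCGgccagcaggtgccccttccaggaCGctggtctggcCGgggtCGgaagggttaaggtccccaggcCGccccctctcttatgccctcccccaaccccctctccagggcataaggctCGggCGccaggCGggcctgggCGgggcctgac
The Itga10 window held 2 CG dinucleotides and 48% G and C, and the Itga11 window 12 and 68.4%. The full 250-base window of Lama5 held 19 and 72.4%. The median was 15 CG dinucleotides over the 12902 windows of genes in the table. The GC box GGGCGG, searched on both strands, occurred in the Lama5 window and in neither Itga10 nor Itga11, and in 57.1% of windows of table genes. None of the 26 member windows held TATAAA on either strand, against 6.63% of windows of table genes. The hypoxia core (ACGTG or GCGTG, both strands) was in none of these 3 windows and in 54.7% of those of table genes, and the heat shock core (GAANNTTC, a palindrome) was in none of them and in 4.98%. Over all 26 member windows, the GC box was in 50%, the hypoxia core in 34.6% and the heat shock core in 7.69%, which are the windows of Lama2 and Itgb5.

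The laminin-binding alpha subunits all had positive fold changes, and Itga3 and Itga6 rose. Itga3 (chr11:95044475-95076844), with Itgb1 a laminin receptor of epithelia, had 27.3, 49.3 and 89.5 normalized counts in shControl and 119, 99.1, 112 and 129 in shBrca2 libraries. The groups did not overlap, and shControl replicate 4 stood close to the shBrca2 values. The means were 55.4 ± 31.5 and 115 ± 12.6 (SD, n = 3 and 4), a log2 fold change of 1.05 (SE 0.34, DESeq2 adjusted p = 0.035). Without shControl replicate 1 it was 0.71 (adjusted p = 0.24), without shBrca2 replicate 1 it was 1.04 (0.11) and without shBrca2 replicate 4 it was 0.99 (0.12), none of them called. Itga6 (chr2:71786886-71858427), which pairs with Itgb1 or Itgb4, had 4.27, 10.1 and 25.3 in shControl and 44.7, 23.3, 22.5 and 59 in shBrca2 libraries. shControl replicate 4 was above shBrca2 replicates 2 and 3. The log2 fold change was 1.51 (SE 0.54, DESeq2 adjusted p = 0.076), on 5 to 58 raw counts per library. Itga6 was not called in edgeR's quasi-likelihood test (adjusted p = 0.11), nor without shControl replicate 1 or 2 or shBrca2 replicate 1 or 4, at log2 fold changes of 1.05 to 1.41 and adjusted p of 0.18 to 0.36. Without shControl replicate 4, the high shControl library, it was 2.45 (adjusted p = 0.003), and Itga3 was 1.61. Itga7, the laminin receptor subunit of muscle, had 61.7 ± 27.6 and 114 ± 35 (SD, n = 3 and 4) and a log2 fold change of 0.88 (SE 0.35, adjusted p = 0.12).

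Of the beta subunits, none was called. Itgb1, the partner of most of the alpha subunits above, had 2025 ± 184 in shControl and 1976 ± 191 in shBrca2 CAFs (SD, n = 3 and 4), with an interval of the log2 fold change from -0.32 to 0.25. Itgb5, which pairs with the Itgav product in a vitronectin receptor, had 1305, 1704 and 1687 against 1277, 1204, 1154 and 1053. Its groups were apart and its adjusted p was 0.088, but its log2 fold change of -0.42 (SE 0.16) was under the fold threshold. Itgb3, the other vitronectin receptor subunit, had a log2 fold change of 0.49 (SE 0.22, adjusted p = 0.19). Itgb4, the partner of Itga6 in hemidesmosomes, had 41.6 ± 22.7 and 67.3 ± 5.85 (SD, n = 3 and 4) and a log2 fold change of 0.71 (SE 0.35, adjusted p = 0.28). The leukocyte beta subunits Itgb2 and Itgb7 had 1 to 15 raw counts per library.

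The RGD-binding alpha subunits were not called. Itga5, which makes the main fibronectin receptor with Itgb1, had 194 ± 116 and 301 ± 84.6 (SD, n = 3 and 4) and a log2 fold change of 0.65 (SE 0.34, adjusted p = 0.32). Its highest shControl value, 328 in replicate 2, was above 3 of the 4 shBrca2 values. Itgav, shared by the vitronectin receptors, had a log2 fold change of 0.21 (SE 0.24), and Itga2b, the platelet fibrinogen receptor subunit, one of -0.24 (SE 0.26). Itga8 had 1 to 6 raw counts per library. Itga9, whose receptor binds tenascin and other matrix proteins, had a log2 fold change of 0.12 (SE 0.24, adjusted p = 0.89).

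Several of the genes that were higher in shBrca2 CAFs were, among shControl libraries, highest in the one with the most epithelial and mesothelial transcripts. Among shControl libraries, replicate 4 had the highest sum of the epithelial list (1142, against 387 and 757) and of the 9 mesothelial markers (3954, against 1245 and 2041). It also had the highest Lama5, Itga3, Itga6, Itga7, Itgb4 and Lamc3 counts of the shControl libraries. Of these, Itga7, Itgb4 and Lamc3 were not called. This was not particular to genes with positive fold changes. The same library was the highest shControl library for Agrn (288), Dag1 (1527), Itgb1 (2207), Itgav (219.9) and Itga2b (90.5), none of them called. The mesothelial sum was 3612 to 4050 in shBrca2 libraries, so that of shControl replicate 4 lay within their range. The mesothelial list shares Krt8, Krt18 and Krt19 with the epithelial list. These 3 were its only called genes, and Msln (log2 fold change 0.89, adjusted p = 0.44), Upk3b (-0.40, 0.88) and Wt1 (0.15, 0.80) were not. Itga10, in contrast, was highest in replicate 2 among shControl libraries. Within shBrca2, replicate 2 had the lowest epithelial and mesothelial sums and the lowest Lama5, Itga10 and Itga3 counts. But Itga6 and Itgb4 were lowest in replicate 3, which had the highest mesothelial sum. Lamc3 was lowest in replicate 4, which had the highest epithelial sum. Without shControl replicate 4 the log2 fold changes were 1.20 for Itgb4, 1.74 for Lamc3 and 1.25 for Itga7, and all 3 were called. The part of these cell types in the differences was not tested.

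**Figure D4:**
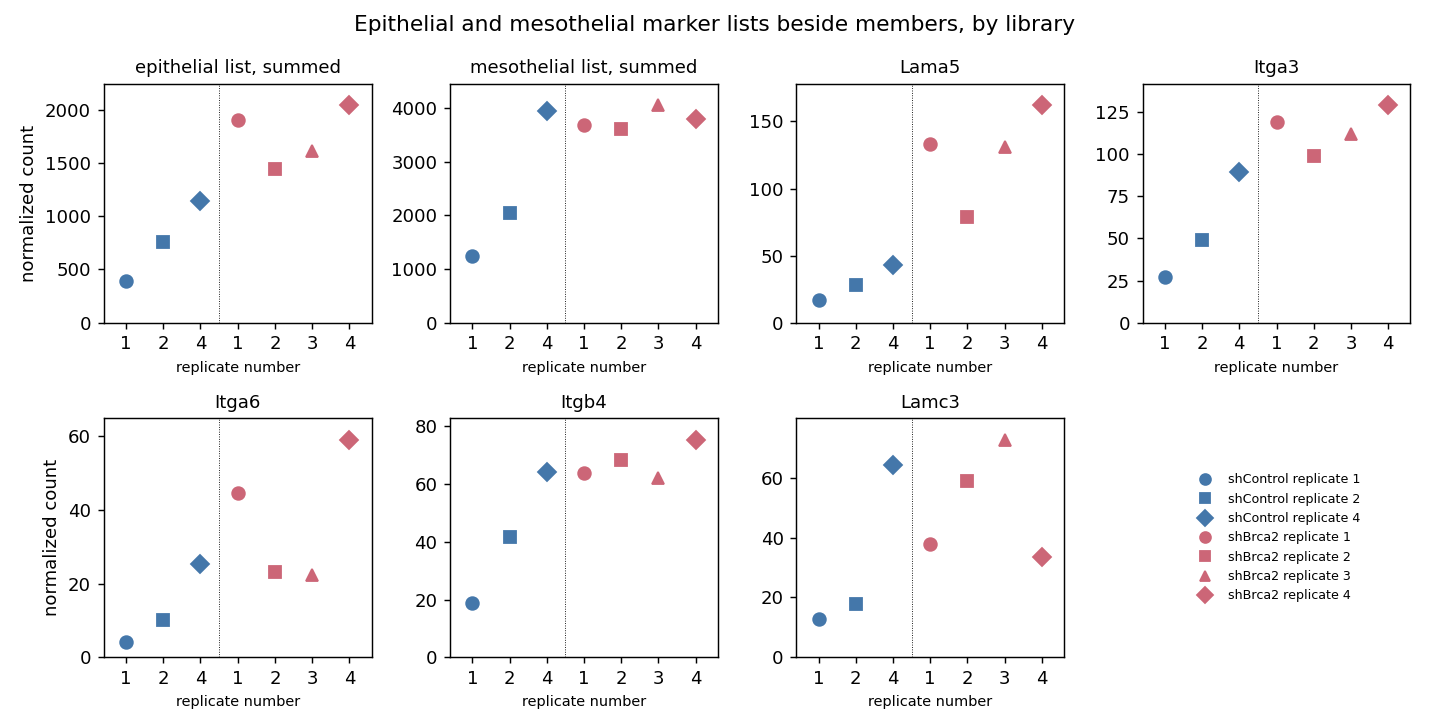
Summed normalized counts of the epithelial and mesothelial marker lists and normalized counts of Lama5, Itga3, Itga6, Itgb4 and Lamc3 in each library, with replicate numbers on the horizontal axis and the dotted line between shControl (left, blue) and shBrca2 (right, red). shControl replicate 4 is the highest shControl library in every panel shown. Itga10, which was called higher, is not shown and was highest in shControl replicate 2. Itgb4 and Lamc3 were not called.

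Of other cells with a basement membrane, 8 pericyte markers summed to 750.0 to 1300 in shControl and 1273 to 1680 in shBrca2 libraries, with Des and Notch3 called higher. Des was the most abundant of the 8, with means of 526 and 949.9. Log2 fold changes were positive for 5 and negative for 3 (Abcc9 -0.32, Kcnj8 -0.13 and Myh11 -0.11). The 5 endothelial markers in the table summed to 70 to 215 and 179 to 240.1, none was called, and Cdh5, Tie1 and Emcn were outside the table. Pecam1 was at 8.26 ± 8.34 and 0.576 ± 0.811 (SD, n = 3 and 4), a log2 fold change of -3.60 (SE 1.22, DESeq2 adjusted p = 0.031). Its mean of 3.87 was under the limit for a call. Kdr (0.51), Egfl7 (0.77) and Esam (0.81) had positive log2 fold changes, and Vwf (-1.11) a negative one. The 3 Schwann cell markers summed to 19.5 to 51.3 and 19 to 49.1, with none called. The 2 platelet markers summed to 56.4 to 97.4 and 67.1 to 88. The 6 leukocyte markers summed to 299 to 315 and 379.5 to 459.9 (C1qa and Csf1r called higher, Jchain lower, Ptprc outside the table). Of these 6, 3 had positive and 3 negative log2 fold changes, with Cd68 (-0.32) and Lyz2 (-0.26) among the negative. The 6 acinar markers summed to 135 to 185 and 94.7 to 154 (Cela1 called higher, Cpa1 lower). The groups were apart for all 6 acinar markers, 5 log2 fold changes were negative and the median was -2.19. Those 5 had mean normalized counts of 2.2 (Try4) to 41.3 (Ctrb1), and Cela1 had 87.7. The part of all these cell types was not tested either.

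The other genes of the pathway also went both ways. Of 20 basement membrane collagens and linkers in the table, 4 rose and 4 fell (40%, against 9.04% of all genes), with a median log2 fold change of -0.15. Col4a2, a chain of the common type IV collagen, fell from 4508 ± 881 to 2776 ± 506 (SD, n = 3 and 4), a log2 fold change of -0.70 (SE 0.20, DESeq2 adjusted p = 0.011). Col4a5 and Col4a6, chains of a type IV collagen found in certain epithelial and smooth muscle basement membranes, rose, with log2 fold changes of 0.91 (SE 0.26) and 1.67 (SE 0.44). Col4a1, the partner of Col4a2, had a log2 fold change of -0.55 (SE 0.22) and was not called. Npnt, which encodes the integrin ligand nephronectin, and Tinagl1 rose, with log2 fold changes of 1.11 and 0.94. Hmcn2, Egflam and Smoc2 fell, with log2 fold changes of -2.46, -1.13 and -1.17. Hmcn2 encodes a hemicentin, Egflam the dystroglycan ligand pikachurin and Smoc2 a calcium-binding matrix protein.

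The other lists are read against the 9.04% called over all genes. Of 27 genes of integrin adhesion (adaptors, kinases and regulators), 11.1% were called, close to that share. None rose, and Lims2, Pxn (paxillin) and Tns2 (a tensin) fell, with log2 fold changes of -1.12, -0.50 and -0.68 and a median over the list of -0.02. Of 17 integrin ligands and related genes outside the laminins, 29.4% were called. Vcam1 (0.98) and Tgfb1 (1.08) rose, and Vtn, which encodes vitronectin (-1.80), Icam1 (-0.76) and Lrrc32 (-0.92) fell, with a median of 0.03. Of 18 genes of the dystroglycan complex and its glycosylation, 11.1% were called, again close to the share over all genes. Sgce (-0.67) was among those called and fell, with a median of -0.24. Of 13 other laminin receptors and their partners, 15.4% were called, which are the syndecan genes Sdc1 (0.99) and Sdc3 (-0.96), in opposite directions, with a median of 0.09. Values in brackets here are log2 fold changes.

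Only 4 of the 9 called members, Lama5, Itga10, Lama2 and Itga11, were called in all 11 alternative fits (another tool, another normalization, a filter, a replicate block and each library left out). Lamb1 was called in 9, Itga3 in 8, Lamb2 and Itga6 in 6 and Nid1 in 5. The Lama5 log2 fold change ran from 1.81 to 2.51 over these fits, that of Itga10 from 1.63 to 2.18, that of Lama2 from -1.84 to -1.21 and that of Itga11 from -1.30 to -1.10. Without shControl replicate 1, shBrca2 replicate 1 or shBrca2 replicate 4, the members called higher went from 4 to 2, Itga10 and Lama5. Without shBrca2 replicate 1 or 4, those called lower went from 5 to 2, Itga11 and Lama2. Without shControl replicate 4, those called higher went to 7, with Itga7, Itgb4 and Lamc3 added.

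**Figure D5:**
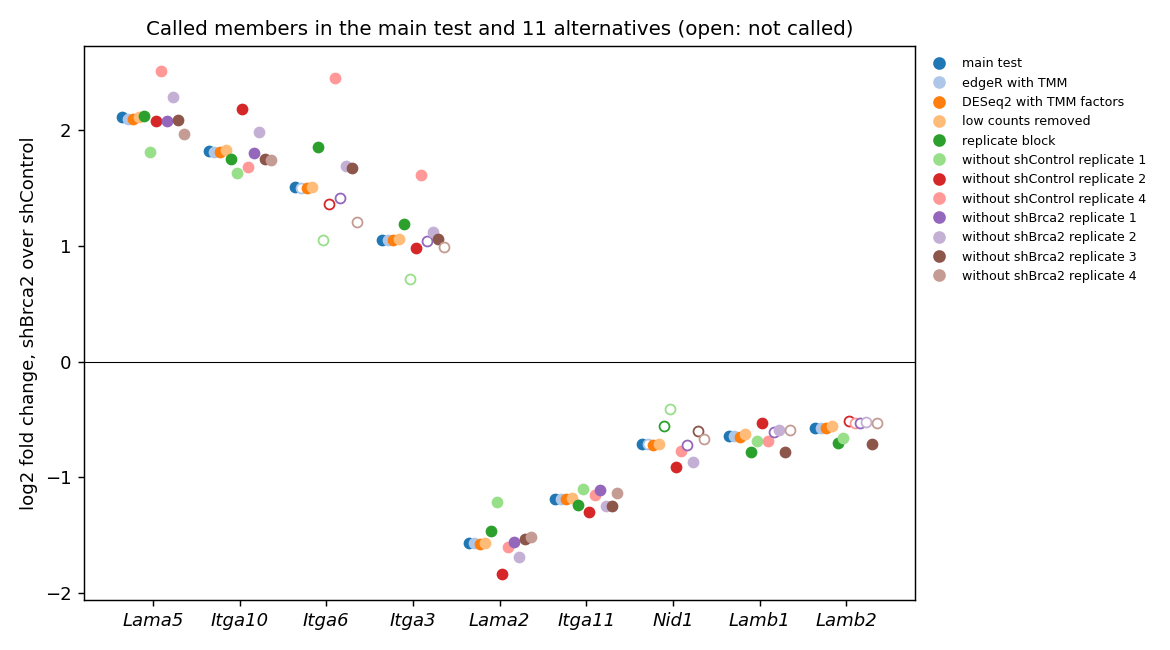
Log2 fold change (vertical axis) of the 9 called genes in the main test and in 11 alternatives, each a colored point, open where the gene was not called. Lama5, Itga10, Lama2 and Itga11 have filled points only, and no gene changes sign.

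Read assignment may affect some of these values, since strand handling is not given in the sources used here. Lama5 shares 85 exon bases with Adrm1 on the opposite strand, and 2 of its 3 transcript 3′ ends lie there, while Adrm1 itself had a log2 fold change of 0.33 (adjusted p = 0.61). For Lamb1, 5 of 12 transcript 3′ ends lie in stretches shared with Dld or Gm61290, and Dld had a log2 fold change of 0.04 (adjusted p = 0.95). For Lama2, 1 of 11 lies in Gm48084. No 3′ end of Itga10, Itga11, Itga3, Itga6, Nid1 or Lamb2 is shared.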

How the data were processed

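About 10000 sorted CAFs per library went into a MARS-seq variant that reads transcript 3′ ends. What the authors deposited is 1 table of raw counts, with genes in rows and libraries in columns. Per the labels, bcl2fastq, cutadapt, STAR 2.4.2a, HTSeq and DESeq2 were used with mm10, without stated roles. Collapsing of molecular barcodes, strand and annotation are not given in the sources used here, so counts may include PCR copies.

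DESeq2 1.42.0 (R 4.3.3) was fitted on all 12771 genes and 7 libraries by its likelihood ratio test of the group, with default size factors and no covariates. Adjusted p-values are Benjamini-Hochberg values over the table (12768 genes received one). Fold changes are shBrca2 over shControl, unshrunken. Alternatives were edgeR 4.0.16 (quasi-likelihood, TMM), TMM factors in DESeq2, a filter of 10 counts in 3 libraries, a replicate block and each library left out. The study counts 3 shControl and 4 shBrca2 mice, the same numbers as libraries, so each library was taken as 1 mouse, although the labels do not name the mouse.

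Members, gene lists and tests were chosen with earlier results of these data known. Of the 33 members 32 are named, and 1 member and 1 gene of another list are not reported here. Library values are given for called members, for those with an adjusted p under 0.1 and for those whose groups did not overlap. Positions and promoters are RefSeq, GRCm38.p6. Shared exons come from GENCODE vM39.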

Additional observations from a re-analysis of the deposited data

Results flagged for a closer look

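shBrca2 replicate 3, the library with the fewest counts, stood apart from the other shBrca2 libraries for 3 members, by a gap to the nearest library that was large against the range of the group. Hspg2 had 2751 normalized counts there, against 1593 to 1745 in the others. Lamb1 had 1164, against 794 to 839, and Lamb2 had 1183, against 822 to 849. All 33 members were screened in this way, and chance flags about 1 in 20 groups. The share flagged over all genes was not computed. Without this library Hspg2 was called lower, at a log2 fold change of -0.74. The part of depth in these values was not tested.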

How the results depend on the processing

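The 4 calls of Lama5, Itga10, Lama2 and Itga11 held in all 11 alternatives, and no called member changed sign. Leaving out 1 library at a time, the members called higher ran from 2 to 7, those called lower from 2 to 5 and the genes called over the table from 615 to 1305, against 4, 5 and 1154. With edgeR they were 3, 4 and 1116. The replicate block gave 4 and 5 members, with Hspg2 in and Nid1 out, and 491 genes in the table. With no shControl library of that number, it takes shBrca2 replicate 3 out of the group comparison. Deviations of same-numbered libraries from their group means correlated at -0.07, -0.10 and -0.09, and those of other pairs at -0.10 to 0.19. None of the shControl replicates correlated best with the shBrca2 library of its own number. With means of only 3 and 4 libraries, these values cannot decide whether same-numbered libraries shared a batch.

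Of members that were not called, the log2 fold change crossed 0 in Agrn (-0.21 to 0.16), Itga2 (-0.08 to 0.42), Itga9 (-0.02 to 0.24), Itgb1 (-0.10 to 0.03) and Lamb3 (-0.12 to 0.85) when 1 library was left out. Itga5 was called higher without shControl replicate 2, Itga7 without shControl replicate 4 or shBrca2 replicate 2, and Itgb5 and Lama4 lower without shControl replicates 1 and 4, respectively. The cause was not tested. Leaving out 1 library moved the difference of the Lama5 share from 7.84 to between 7.03 and 9.07 percentage points and that of Itga10 from 25.6 to between 23.9 and 29. Counts under about 20 per library limit Itga1, Itga2, Itga8, Itgb2, Itgb7 and Lamb3. Among called members, Itga10 had only 13 to 19 raw counts in the shControl libraries, and Itga6 had 5 to 26.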
